A study of Homo sapiens with 8 samples.

Results

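ANKRD37, WSB1, ANKZF1, ERO1A, RORA, FOSL2 and CSRNP1 are 7 of 20163 protein-coding genes around which HIF-1β binding was read from peak lists of 4 human cancer cell lines. The 7 genes were chosen by name, as hypoxia genes thought to respond in many cell types, with results of these peak lists already known, so that the presence of a peak at them is a description and was not tested. For each gene, every peak that overlapped the gene body extended by 25 kb on each side was taken. Of 18645 peaks in all libraries together, 62 lay in these 7 windows, in 11 separate regions.

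HIF-1β was immunoprecipitated with its bound DNA, and the DNA was sequenced (ChIP-seq), in PC-3 (prostate cancer), T47D (breast cancer), A549 (lung cancer) and HCT-116 (colorectal cancer) cells. Each line was represented by 2 replicate libraries, and all 8 libraries came from cells held at 0.5% oxygen for 16 h. Neither normoxic cells nor an input library was analysed here, so the lists show where HIF-1β peaks were called in hypoxia and hold no measure of how binding or expression responded to it. The labels do not state whether replicates were separate cultures. The lists held between 1042 and 3790 peaks and no reads, so the depth behind them is unknown, and the replicates of PC-3 (1042 and 2891 peaks) and of HCT-116 cells (3790 and 1913) differed most in length.

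Hypoxia-inducible factor (HIF) is a dimer of an oxygen-regulated α subunit and the constitutive HIF-1β subunit. When oxygen is scarce the α subunit escapes prolyl hydroxylation and destruction, pairs with HIF-1β and binds a short core motif, RCGTG, where R is A or G, in promoters and enhancers. The genes examined belong to different processes downstream of this step. ANKRD37 encodes a small ankyrin-repeat protein. WSB1 encodes the substrate-binding subunit of a ubiquitin ligase, ANKZF1 a factor that frees stalled nascent chains from ribosomes, and ERO1A the oxidase that drives disulphide formation in the endoplasmic reticulum. RORA is a nuclear receptor of the circadian clock, FOSL2 a subunit of the AP-1 transcription factor, and CSRNP1 a nuclear protein of a small cysteine- and serine-rich family.

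The sequence under the peaks is shown first, for the main regions of ANKRD37, WSB1, ANKZF1, ERO1A and FOSL2, where peaks of different lines coincided. Each piece has at most 300 bases and is part of the stretch that most libraries shared, not all of it. All sequences are on the plus strand of GRCh37, avoid annotated untranslated regions, and carry each match to RCGTG on either strand in capitals (CACGY, with Y for C or T, on the minus strand; the palindrome CACGTG counts as a match on each strand).
ANKRD37, chr4:186317579-186317855, 5 matches: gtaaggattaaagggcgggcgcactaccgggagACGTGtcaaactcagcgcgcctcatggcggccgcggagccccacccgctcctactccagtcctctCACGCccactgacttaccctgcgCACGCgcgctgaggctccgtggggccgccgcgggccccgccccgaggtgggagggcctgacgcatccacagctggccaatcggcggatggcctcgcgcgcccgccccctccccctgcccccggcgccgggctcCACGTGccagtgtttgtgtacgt
WSB1, chr17:25620828-25621101, 3 matches: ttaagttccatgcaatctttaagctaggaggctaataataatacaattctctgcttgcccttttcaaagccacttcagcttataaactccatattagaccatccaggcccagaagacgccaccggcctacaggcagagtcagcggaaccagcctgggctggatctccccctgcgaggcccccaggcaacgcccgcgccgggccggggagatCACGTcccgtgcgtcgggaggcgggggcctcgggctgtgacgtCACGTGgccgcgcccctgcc
ANKZF1, chr2:220094980-220095269, 2 matches: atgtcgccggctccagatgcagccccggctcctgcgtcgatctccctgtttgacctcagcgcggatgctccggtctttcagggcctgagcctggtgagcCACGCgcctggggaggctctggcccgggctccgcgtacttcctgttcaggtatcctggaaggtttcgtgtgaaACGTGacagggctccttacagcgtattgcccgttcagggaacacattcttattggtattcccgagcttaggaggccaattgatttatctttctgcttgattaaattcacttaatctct
ERO1A, chr14:53161900-53162199, 3 matches: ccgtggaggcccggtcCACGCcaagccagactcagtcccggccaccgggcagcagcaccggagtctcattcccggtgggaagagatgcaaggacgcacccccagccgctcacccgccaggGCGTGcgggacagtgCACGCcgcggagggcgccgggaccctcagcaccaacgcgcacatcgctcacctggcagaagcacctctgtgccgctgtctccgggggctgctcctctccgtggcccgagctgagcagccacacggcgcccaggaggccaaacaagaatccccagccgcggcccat
FOSL2, chr2:28615452-28615668, 2 matches: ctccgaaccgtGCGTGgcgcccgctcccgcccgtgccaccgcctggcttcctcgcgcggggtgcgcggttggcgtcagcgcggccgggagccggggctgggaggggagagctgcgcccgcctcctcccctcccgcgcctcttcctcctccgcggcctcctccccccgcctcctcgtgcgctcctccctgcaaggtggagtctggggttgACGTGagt
The pieces of ANKRD37 and WSB1 each end near a CACGTG palindrome. The ERO1A piece spans coding exon 1 and the start of intron 1 of a gene on the minus strand. It held the G form of the motif alone, with 0 copies of ACGTG. The whole ERO1A stretch shared by all 8 libraries, 1112 bp, held 8 matches, 2 of them ACGTG. RORA has no sequence here because no library had a peak near it.

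Peaks lay in the windows of 6 of the 7 genes, and at RORA there were none. A site of a line was a place where its replicates each had a peak and the peaks shared 1 bp or more. Sites were present at 5 of the 7 genes in PC-3 cells and at 5 in T47D cells, against 7.07% and 16.0% of all protein-coding genes. In A549 and in HCT-116 cells 6 of the 7 genes had a site, against 6.01% and 14.2% of all genes. A site in all 4 lines was found for ANKRD37, WSB1, ANKZF1 and ERO1A (2.46% of all genes), and these 4 genes also had a peak in all 8 libraries (2.49%). ANKZF1 lost its A549 site with a window of 5 kb, which left 5 genes with a site in that line, and ANKZF1, ERO1A and CSRNP1 lost theirs when the lists were limited to the higher-scoring 50%, which left 3. RORA was the member without a peak in any library, as were 56.5% of all genes. Since the genes were chosen with the peaks known, nothing is read from the distance of these counts from the background.

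**Figure D1:**
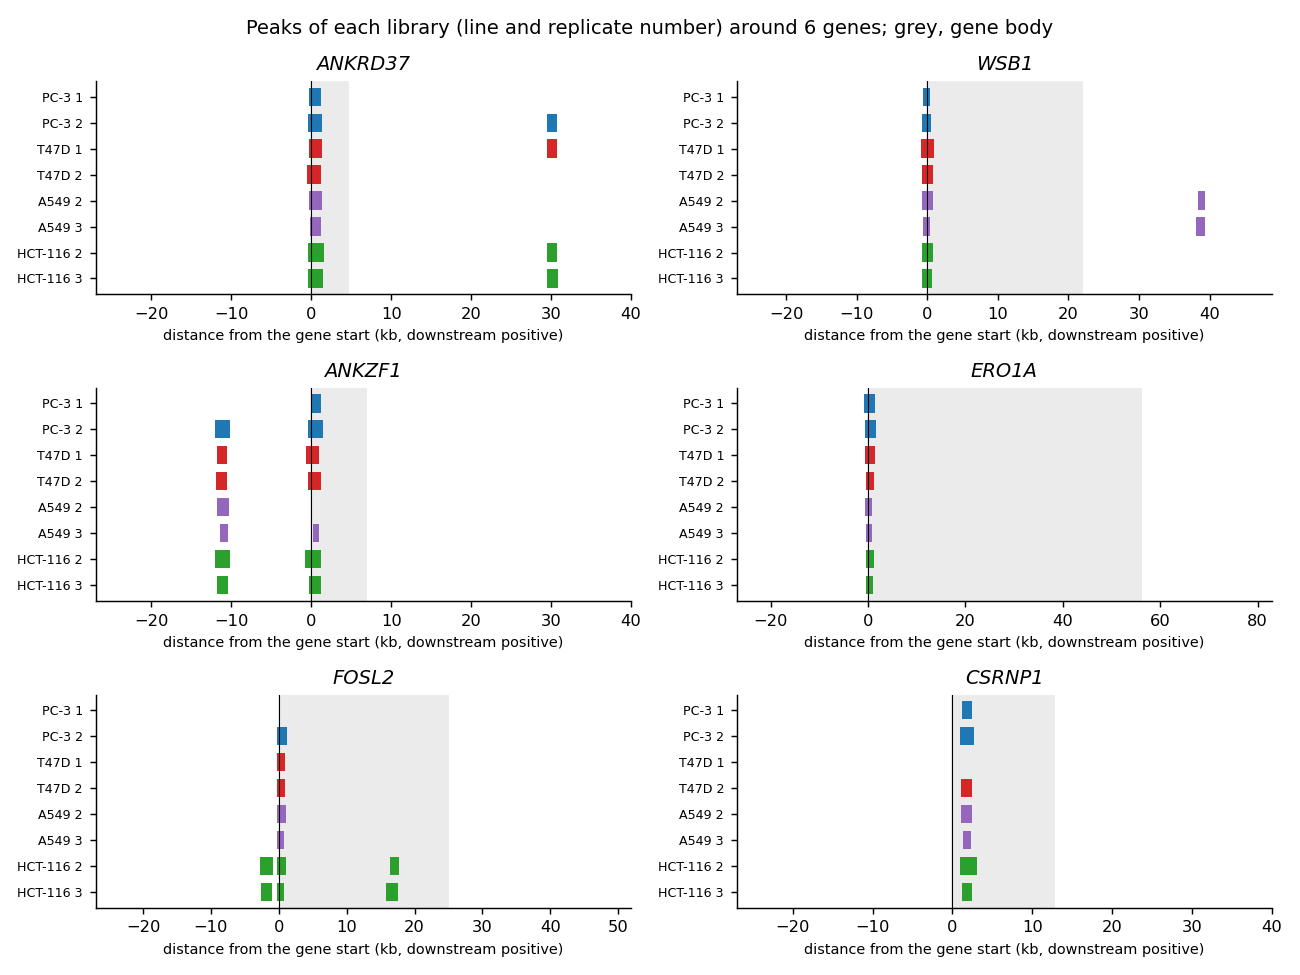
Position of every peak within 25 kb of 6 genes, as the distance from the gene start in kb (horizontal axis, downstream positive), with 1 row for each library named by line and replicate number. Bars span the peaks and grey marks the gene body. The peaks of most libraries stack at the start of each gene. ANKZF1 also has an upstream region in 7 libraries, and ANKRD37 a downstream region at the window edge in PC-3, T47D and HCT-116 cells. WSB1 has a downstream region in A549 cells and FOSL2 further regions in HCT-116 cells. RORA is left out because it had no peak.

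The 62 peaks were 746 to 2295 bp wide, with a median of 1446.5 bp, and 58 of them overlapped a peak of the other replicate of their line. Of the 11 regions, 3 held a peak of all 8 libraries (the promoter regions of ANKRD37, WSB1 and ERO1A), 5 a peak of 7 libraries and 3 a peak of 2 libraries. These counts take each region whole. In the region downstream of ANKRD37 they therefore include peaks past the 25 kb limit, which are not among the 62. The middle of 7 regions lay within 2 kb of an annotated start of the gene and that of 4 lay farther away. Because scores were not comparable from library to library, each peak was placed by the percent of peaks of its own library that scored lower, with ties counted as equal, and by its rank from the top.

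ANKRD37 (chr4:186317175-186321782, plus strand) carried peaks among the highest of every library. The score was 2132.24 and 3100 in PC-3 replicates 1 and 2, 3100 in both T47D replicates, 1559.37 and 1060.09 in A549 replicates 2 and 3, and 3100 in both HCT-116 replicates. The value 3100 recurs in 7 of the lists, at 1 to 13 peaks in each, so ranks among such peaks are shared. Ranks from the top were 1 and 2 in PC-3, 1 and 2 in T47D, 25 and 23 in A549 and 1 and 1 in HCT-116 cells, each rank shared with the other peaks of that library at 3100 where that was the score. Both A549 libraries were the lowest of the 8, at 98.6% and 98.2% of peaks scoring lower, and the other 6 lay between 99.83% and 99.95%. As a site, with the ranks of both replicates averaged, ANKRD37 stood 1st of 970 in PC-3, 3rd of 2062 in T47D, 23rd of 1041 in A549 and 3rd of 1756 in HCT-116 cells.

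The 8 peaks at ANKRD37 covered chr4:186316662-186318752, with its middle 531 bp downstream of the annotated gene start and -259 bp (upstream) from the nearest start of a transcript. A stretch of 1420 bp was common to all 8 peaks and held 13 matches to RCGTG, 5 of them ACGTG. A start of LRP2BP, which encodes a binding partner of the endocytic receptor megalin, also lies within 2 kb of this region, and the peaks do not tell the promoters of the neighbouring genes apart. Downstream of the gene lay another region, chr4:186346681-186348042, next to the starts of UFSP2, a protease that matures the ubiquitin-like protein UFM1, and of C4orf47. It had a peak in 7 libraries and a site in PC-3, T47D and HCT-116 cells, at mean percents of 49.9, 80.4 and 84.4. The 25 kb limit runs through this region. The HCT-116 replicate 2 peak (score 393) begins 24915 bp from the ANKRD37 gene body and was counted among the peaks of the window. The T47D replicate 2 peak (score 169.32) begins at 25004 bp and was not. Peaks of PC-3 replicate 1 and A549 replicate 3 in this region also began past the limit. The PC-3 and T47D sites here thus each join a peak inside the limit with a peak past it.

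WSB1 (chr17:25621102-25642952, plus strand) had a peak over its start in all 8 libraries. Scores were 192.21 and 221.19 in PC-3 replicates 1 and 2, 558.37 and 631.38 in T47D replicates 1 and 2, 173.78 and 217.42 in A549 replicates 2 and 3, and 801.63 and 509.57 in HCT-116 replicates 2 and 3. Between 94.1% and 96.5% of peaks scored lower in the 4 libraries of T47D and HCT-116 cells, and between 73.1% and 84.2% in those of PC-3 and A549 cells, so the ranges of these pairs of lines did not overlap. The region, chr17:25620244-25621991, had its middle at -124 bp (upstream) from the gene start, and no other protein-coding gene starts within 2 kb of it. Its site ranked 255th of 970 in PC-3, 109th of 2062 in T47D, 312th of 1041 in A549 and 115th of 1756 in HCT-116 cells. In A549 cells alone among the lines there was another site past the gene, chr17:25659184-25660462, which began 16529 bp from the gene body. Its scores were 104.8 in replicate 2 and 51.1 in replicate 3, where only 3.58% of peaks scored lower, near the bottom of that list.

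ANKZF1 (chr2:220094505-220101401, plus strand) had peaks in all 8 libraries, but not at the same place in all of them. The promoter region, chr2:220093786-220096015, had a peak in every library except A549 replicate 2 and a site in PC-3, T47D and HCT-116 cells. Its scores were 215.15 and 467.74 in PC-3 replicates 1 and 2, 407.49 and 403.42 in T47D replicates 1 and 2, 92.59 in A549 replicate 3, and 510.32 and 210.72 in HCT-116 replicates 2 and 3. In A549 replicate 3 the peak was the narrowest of the 62, at 746 bp, and 48.4% of peaks scored lower, against 79.9% to 94.7% in the 6 libraries of the other lines. The middle of the region falls in exon 2, 615 bp past the gene start, and ATG9A, a lipid scramblase of autophagy, starts within 2 kb.

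The other region of ANKZF1, chr2:220082457-220084331, lies upstream, with its middle at -10974 bp from the gene start and next to the start of ABCB6, a porphyrin transporter. Peaks were found there in every library except PC-3 replicate 1, and a site in T47D, A549 and HCT-116 cells. Scores were 139.72 in PC-3 replicate 2, 65.01 and 95.94 in T47D replicates 1 and 2, 95.24 and 71.03 in A549 replicates 2 and 3, and 383.51 and 217.36 in HCT-116 replicates 2 and 3. In T47D cells this was the lower of the 2 regions in both replicates, and in HCT-116 replicate 3 it was the higher by a small margin, 80.8% against 79.9%. The site of ANKZF1 in all 4 lines therefore rests on the upstream region in A549 cells and on the promoter in PC-3 cells.

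ERO1A (chr14:53106633-53162618, minus strand) had a single region, chr14:53161057-53163369, with a peak of every library and its middle 209 bp inside the gene start. Scores were 378.97 and 1124.13 in PC-3 replicates 1 and 2, 253.67 and 329.76 in T47D replicates 1 and 2, 61.27 and 194.11 in A549 replicates 2 and 3, and 342.68 and 252.93 in HCT-116 replicates 2 and 3. PC-3 cells stood highest, with the peak ranked 86th and 56th from the top and 91.8% and 98.1% of peaks scoring lower. The T47D and HCT-116 libraries lay between 84.4% and 90.5%, below both PC-3 libraries. In A549 cells the replicates differed widely, with 20.9% of peaks scoring lower in replicate 2 (rank 1398 of 1768) and 78.5% in replicate 3 (rank 274 of 1270).

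FOSL2 (chr2:28615315-28640184, plus strand) had a peak over its promoter, chr2:28615046-28616545, in every library except PC-3 replicate 1. Scores were 155.54 in PC-3 replicate 2, 103.04 and 189.63 in T47D replicates 1 and 2, 118.84 and 116.14 in A549 replicates 2 and 3, and 538.89 and 290.7 in HCT-116 replicates 2 and 3. The HCT-116 peaks stood above all others, with 93.8% and 87.1% of peaks scoring lower against 59.5% to 81.2% elsewhere. HCT-116 cells also had 2 further sites that no other line had. The site upstream of the promoter, chr2:28612534-28614426, scored 132.38 and 66.18 in replicates 2 and 3. The site in intron 3, chr2:28631133-28632987, scored 453.7 and 172.49, with 92.5% and 74.7% of peaks scoring lower. The intron 3 site was poor in CpG, with an observed to expected ratio of 0.178, where the FOSL2 promoter site in HCT-116 cells had 0.878 and the median of all HCT-116 sites was 0.754.

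CSRNP1 (chr3:39183346-39196053, minus strand) had a single region, chr3:39192921-39195093, which lay wholly inside the gene, unlike the main regions of the other genes with peaks. The middle of the region fell in intron 1, 1797 bp past the gene start and 826 bp past the nearest annotated start. Scores were 144.83 and 134.1 in PC-3 replicates 1 and 2, 155.01 and 83.53 in A549 replicates 2 and 3, and 327.39 and 275.21 in HCT-116 replicates 2 and 3. T47D replicate 1 had no peak, and T47D replicate 2 a peak of 61.27, rank 2258 of 2910. HCT-116 cells were highest, with 88.6% and 86.2% of peaks scoring lower, and PC-3 replicates lay close together at 71.3% and 70.5%. The A549 replicates were 69.8% and 43.2%, both below the PC-3 values.

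RORA (chr15:60780483-61521501, minus strand) stood apart from the other genes by its lack of peaks, which is no measure of its response to hypoxia. No library had a peak in its 741019 bp or in the 25 kb on either side, and the peak nearest to it in each library lay between 88405 bp (A549 replicate 2) and 1203865 bp (PC-3 replicate 1) from the gene body. Of 154 other protein-coding genes at least as long, 80 had no peak in any library. The core motif is present at its starts. The 14 annotated starts of RORA fall in 5 clusters, of which 4 held RCGTG within 500 bp, with 10 copies in all. Within 500 bp of its gene start alone RORA held 3 copies. By that count at a single start, 85.4% of all protein-coding genes held the motif, with a median of 2 copies.

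**Figure D2:**
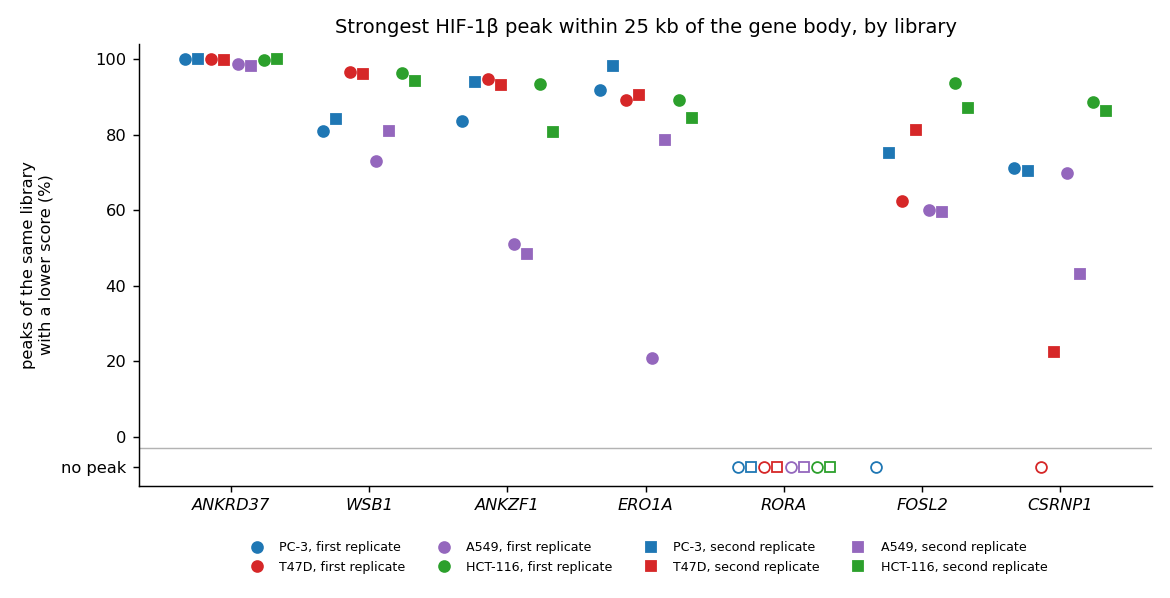
Percent of peaks of the same library that scored lower than the highest-scoring peak of each gene (vertical axis), for the 8 libraries (colours are lines, circles the lower and squares the higher replicate number). Open symbols at the bottom mark libraries without a peak; ANKRD37 sits above 98% in all 8, and among libraries with a peak the lowest value of ANKRD37, WSB1, ANKZF1, ERO1A and FOSL2 is from A549 cells.

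Within a line, the genes could be ordered by the mean percent of their replicates. ANKRD37 came first in all 4 lines, and its replicate values did not overlap those of the next gene. In T47D cells WSB1, ANKZF1, ERO1A and FOSL2 followed at 96.2%, 93.8%, 89.8% and 71.8%, with no overlap between neighbours. In PC-3 cells ERO1A (94.9%) overlapped ANKZF1 (88.7%), which overlapped WSB1 (82.6%), whereas CSRNP1 (70.9%) lay apart from WSB1. In HCT-116 cells WSB1 (95.2%) lay apart from FOSL2 (90.5%), and FOSL2, CSRNP1, ANKZF1 and ERO1A, at 90.5% to 86.8%, each overlapped the next. In A549 cells WSB1 (77.0%) lay apart from FOSL2 (59.7%), and FOSL2 lay apart from ANKZF1 (49.7%). This ANKZF1 mean joins the upstream peak of replicate 2 with the promoter peak of replicate 3. Its only A549 site, upstream, had a mean of 42.3%. The ANKZF1 mean in HCT-116 cells likewise joins the promoter peak of replicate 2 with the upstream peak of replicate 3. The replicates of ERO1A in A549 cells, at 20.9% and 78.5%, spanned the values of FOSL2, CSRNP1 and ANKZF1 and reached into those of WSB1, so its place in that order is not set. With 2 replicates in a line, overlap or its absence describes these libraries and no test was made.

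Replicates placed the peaks of these genes close to each other. Both replicates had a peak in 22 pairs of gene and line, and in 20 of them the highest-scoring peaks overlapped, with 4 to 229 bp between their midpoints (median 73.5 bp). Over all sites of a line, the median distance between replicate midpoints was 70 to 83 bp. The 2 exceptions were ANKZF1 in A549 and in HCT-116 cells, where the replicates' highest-scoring peaks were the upstream region in one and the promoter in the other, 11709 and 11370 bp apart.

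At the highest-ranked site of each gene in each line, 22 in all, the percent of peaks scoring lower differed between replicates by 0.0385 to 57.5 points. The median difference was 3.29 points in PC-3, 1.43 in T47D, 12.5 in A549 and 3.57 in HCT-116 cells, and over all sites of those lines the medians were 21.4, 9.83, 11.2 and 15.7 points. It was thus below that of all sites in PC-3, T47D and HCT-116 cells and above it in A549 cells. A peak near the top of both lists has little room to differ, and the genes were chosen with their ranks known, so this is a description. Differences over 15 points were found for ERO1A in A549 cells (57.5 points, replicate 3 higher), for CSRNP1 in A549 cells (26.6 points, replicate 2 higher), for the upstream site of ANKZF1 in A549 cells (17.2 points, replicate 2 higher) and for FOSL2 in T47D cells (18.8 points, replicate 2 higher).

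**Figure D3:**
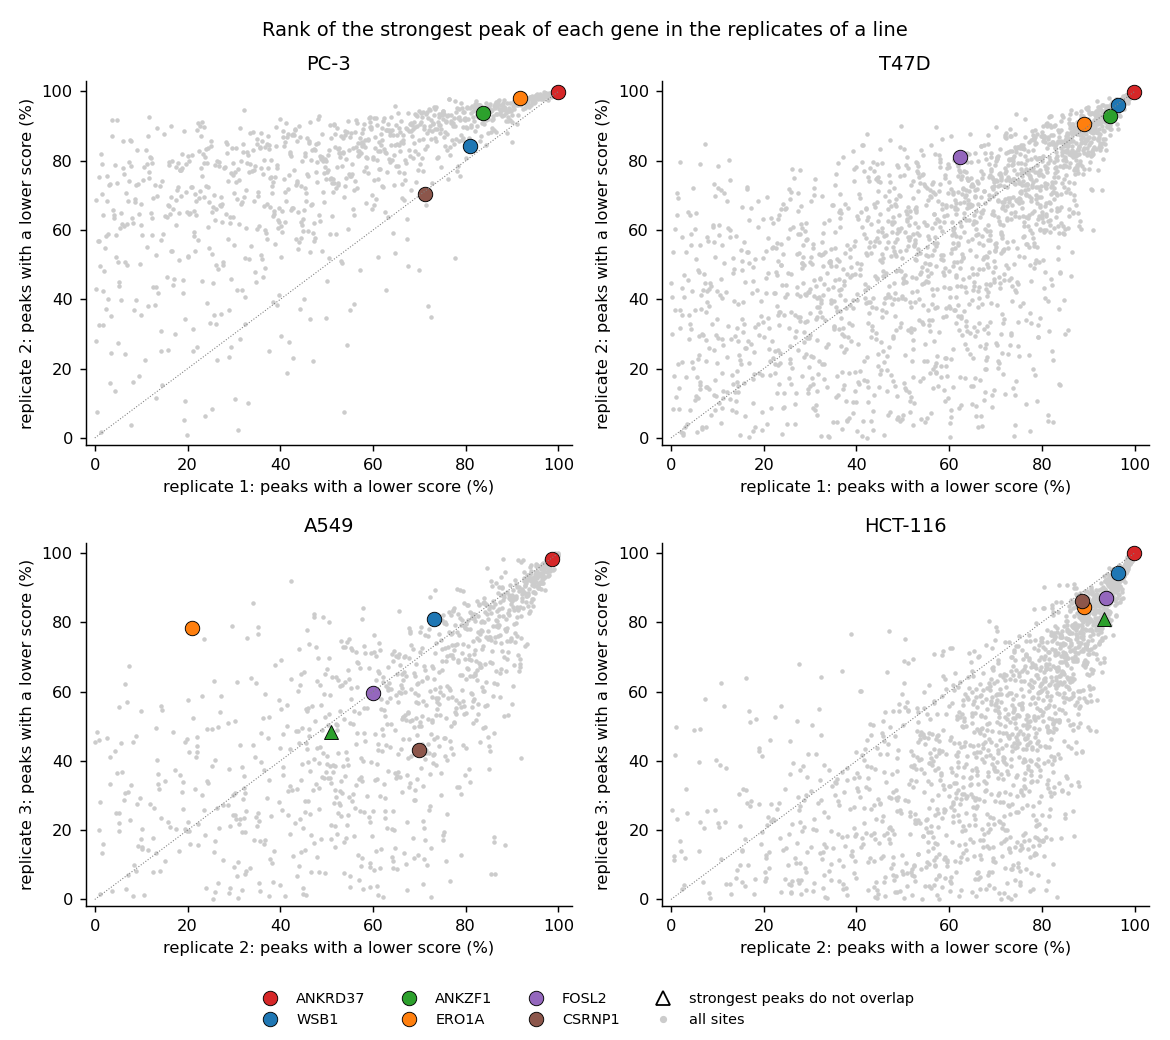
Percent of peaks scoring lower in 1 replicate of a line (horizontal axis) against the other (vertical axis), with all sites in grey and the genes in colour; triangles mark genes whose highest-scoring peaks in the replicates do not overlap. ERO1A in A549 cells, at 20.9% and 78.5%, lies far from the dotted line of equal rank, and ANKRD37 lies in the upper right corner of all 4 panels.

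The core motif was counted in the central 200 bp of each gene's highest-ranked site, a measure that played no part in choosing the genes. In PC-3 cells all 5 sites held RCGTG and in A549 cells all 6 did, where 73.8% and 71.2% of all sites of those lines held it. In T47D cells 4 of 5 did, against 64.3% of all sites, with ANKZF1 as the exception. In HCT-116 cells 4 of 6 did, against 73.0%, and ANKZF1 and CSRNP1 did not. In both cases the motif lay just outside the central part, at 125 and 135 bp from the middle of the ANKZF1 site in T47D and HCT-116 cells and at 146 bp for CSRNP1. The HCT-116 site of CSRNP1 was widened to 2173 bp by the replicate 2 peak, and in PC-3 and A549 cells the central part of its site held 4 copies. RCGTG itself holds a CpG. The observed to expected CpG ratios of these sites were 0.622 to 0.973 in PC-3 and 0.613 to 0.957 in A549 cells. The medians of all sites there were 0.404 and 0.359. In HCT-116 cells the CSRNP1 site, at 0.434, lay below the median of 0.754. How far CpG content sets the motif shares apart was not tested.

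Over the whole site, copies of RCGTG ranged from 13 at ANKRD37 in all 4 lines and 9 to 12 at ERO1A to 6 at WSB1 and 5 at the FOSL2 promoter. The median over all sites was 4 in PC-3, 5 in T47D, 3 in A549 and 6 in HCT-116 cells. ERO1A held 2 copies of ACGTG and the rest were GCGTG, whereas WSB1 held 4 ACGTG among its 6. The palindrome CACGTG was present once in the main sites of ANKRD37 and WSB1 and was absent from the promoter sites of ANKZF1, ERO1A and FOSL2 and from the CSRNP1 site. Among all sites it was found in 24.2% (A549) to 35.9% (HCT-116). The upstream region of ANKZF1 and the A549 site past WSB1 each held 2 copies of it. The counts were not adjusted for the width or the CpG content of a site. A match is a description of the sequence and does not show which copy was bound.

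**Figure D4:**
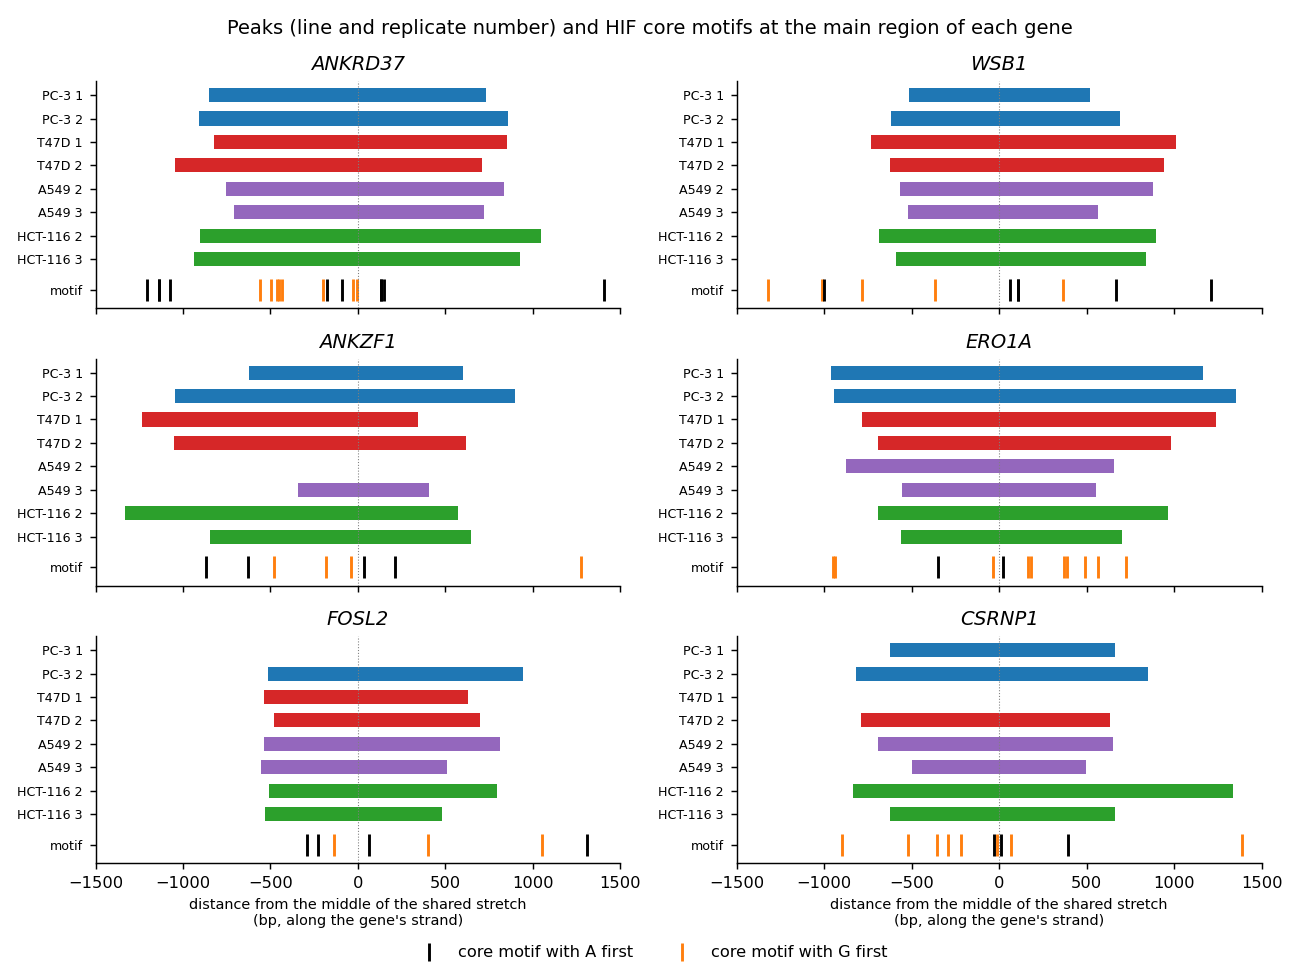
Peaks of the 8 libraries (bars, named by line and replicate number) and copies of the core motif (ticks at the bottom, black for ACGTG, orange for GCGTG) around the main region of 6 genes, as the distance in bp along the gene's strand from the middle of the stretch shared by the libraries with a peak. At all 6 genes a motif copy lies within 100 bp of the middle, and at ANKRD37 13 copies lie within the shared 1420 bp.

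Most of these sites lay at promoters. The highest-ranked site lay within 2 kb of an annotated start of the gene itself in 5 of 5 genes in PC-3, 5 of 5 in T47D, 5 of 6 in A549 and 6 of 6 in HCT-116 cells, and the exception was ANKZF1 in A549 cells. Counted against the starts of all protein-coding genes, that site lay near a start too (ABCB6), which made all 22. By this second measure, among all sites, 43.4% in PC-3, 61.3% in T47D, 33.3% in A549 and 65.1% in HCT-116 cells lay within 2 kb of the start of a protein-coding gene. Since the rule was set around these genes, their sites had to lie in or near a gene, and the shares are given side by side with no test.

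Other genes of the same processes were read by the same rule, by which a site counts wherever it lies in the window, also near a neighbouring gene. Their counts are to be read against the shares of all protein-coding genes with a site, which were 7.07% in PC-3, 16.0% in T47D, 6.01% in A549 and 14.2% in HCT-116 cells, and without the genes already chosen for their peaks. Of 10 genes of oxidative folding in the endoplasmic reticulum, 3 had a site in PC-3, 5 in T47D, 4 in A549 and 5 in HCT-116 cells, and without ERO1A these were 2, 4, 3 and 4 of 9. ERO1A, P4HB, the disulphide isomerase that ERO1A reoxidises, and QSOX1, a sulphydryl oxidase, had a site in all 4. At P4HB 60.7% to 98.5% of peaks scored lower over the 8 libraries and at QSOX1 86.8% to 99.1%. The smallest distance from a peak midpoint to a start of the gene was 48 bp at P4HB and 13132 bp at QSOX1. PRDX4, a peroxidase of the same compartment, had a site in T47D, A549 and HCT-116 cells, and PDIA3, another disulphide isomerase, in T47D and HCT-116 cells. ERO1B, the paralogue of ERO1A, had no peak in any library.

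Of 10 genes of ribosome-associated quality control, 1 had a site in PC-3, 4 in T47D, 2 in A549 and 5 in HCT-116 cells. Without ANKZF1 they were 0, 3, 1 and 4 of 9, and ANKZF1 was the member with a site in all 4 lines. NEMF, which tags stalled chains, and PELO, which rescues stalled ribosomes, had a site in T47D and HCT-116 cells. LTN1, the ligase that ubiquitinates the chains, and TCF25 had a site in HCT-116 cells, UFD1 in T47D cells and NPLOC4 in A549 cells. The smallest distance from a peak midpoint to a start of the gene was 9919 bp at NEMF and 12122 bp at PELO. It was 7717 bp at TCF25, 35286 bp at UFD1, 0 bp at LTN1 and 1580 bp at NPLOC4.

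Of 10 genes listed under SOCS-box proteins and their elongin and cullin partners, 1 had a site in PC-3, 5 in T47D, 1 in A549 and 3 in HCT-116 cells, and without WSB1 these were 0, 4, 0 and 2 of 9. The list includes a gene of neither class, which had no peak in any library. WSB1 was the member with a site in all 4, and its paralogue WSB2 and VHL, the recognition subunit for HIF-α, had no peak in any library. ELOB and RBX1, shared subunits of these ligases, had a site in T47D and HCT-116 cells, and CUL2 and RNF7 in T47D cells. A peak midpoint came within 80 bp of a start of RBX1, 91 bp of CUL2 and 36 bp of RNF7. For ELOB the smallest distance was 24088 bp.

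Of 12 genes of the AP-1 family, 3 had a site in PC-3, 5 in T47D, 2 in A549 and 5 in HCT-116 cells, and without FOSL2 these were 3, 4, 1 and 4 of 11. JUNB had a site in all 4 lines, with 15.5% to 91.0% of peaks scoring lower. JUN had a peak in all 8 libraries and a site in PC-3, T47D and HCT-116 cells. FOSL1 had a site in PC-3 and HCT-116 cells, ATF3 in T47D and HCT-116 cells, and FOS in T47D cells, where 97.8% and 98.6% of peaks scored lower. The smallest distance from a peak midpoint to a start was 4836 bp at JUNB, 11093 bp at FOSL1 and 3267 bp at FOS. It was 408 bp at JUN and 14 bp at ATF3.

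Among the ROR and REV-ERB receptors, which act on the same response elements of the clock, NR1D2 had a site in HCT-116 cells, and RORB, like RORA, had no peak in any library. Of the 3 CSRNP genes, CSRNP2 had a site in HCT-116 cells, at 29.1% and 2.59% of peaks scoring lower, and CSRNP3 had no peak.

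Genes whose pattern over the 8 libraries was closest were found from the percent of peaks scoring lower than their highest-scoring peak within 25 kb, with the mean absolute difference as the measure and a missing peak counted as 0. Genes that shared a highest-scoring peak with the gene compared, such as near neighbours, were left out, and where several genes shared a peak the gene with the nearest start was kept. Nearest to ANKRD37 were NARF (0.271 points), HIF1A (0.294 points), which encodes an oxygen-regulated HIF α subunit, and ENO1 (0.346 points), a glycolytic enzyme. ANKRD37 lay near the top of every list, so any gene also near the top of all of them differs little from it. Its differences are therefore not comparable with those of the other genes. WSB1 was nearest to OXSR1 (3.12 points), ZC3HAV1L (3.31) and R3HCC1L (3.37), and ANKZF1 to NAMPT (3.99), CCNG2 (5.73) and XXYLT1 (5.85). ERO1A was nearest to a gene without a symbol, ENSG00000287856 (6.89 points), to FBXO42 (7.01) and to ZNF653 (8.70). For FOSL2 the nearest were HPRT1 (5.72), HM13 (8.18) and PRSS8 (8.20), and for CSRNP1 they were DDX47 (7.30), CPOX (8.24) and CAV1 (10.1). The peaks compared lay on average 92958 bp from the nearest start of ENSG00000287856, 27275 bp from that of PRSS8 and 17203 bp from that of DDX47. The mean was 10722 bp for CAV1, 8550 bp for CPOX and 5596 bp for HIF1A. For the rest of the genes named it was between 40 bp (FBXO42) and 988 bp (HM13). All values compared come from the same 8 libraries.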

How the data were processed

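HIF-1β ChIP-seq peak lists of 8 libraries (PC-3, T47D, A549 and HCT-116 cells, 2 replicates each) were used. The submitters' processing notes name Trim Galore 0.3.3, BWA 0.7.5a-r405, SAMtools 0.1.19, Picard 1.106, bedtools 2.17.0, MACS and GRCh37 (hg19). The deposited lists give each peak's interval and a score, called by the authors per library. What the score measures is not given in the sources used here; its lowest value is close to 50 in each list. The study's methods also name T-PIC as a caller whose peaks had to coincide, a step that cannot be seen in the lists.

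Peaks on main chromosomes were taken within 25 kb of gene bodies of GENCODE release 44 lifted to GRCh37, and overlaps of at least 1 bp made sites. Score ranks were computed within a library. RCGTG was counted on both strands. Python 3.11.15, NumPy 2.4.6, pysam 0.24.0, Matplotlib 3.10.9 and samtools 1.23.1 were used, and the scripts were tested on simulated data. No test was made between groups, and p-values are not given. Depth is unknown, as the lists hold no reads.

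The genes and the gene lists were chosen with earlier results of these data known. The genes named are the 7 genes, the genes of 6 lists (values for those with a site), genes that start within 2 kb of a member's highest-ranked site, and the 3 genes most like each member in rank over 8 libraries. UFSP2, C4orf47 and ABCB6, at further regions, and the list genes without a site were named outside this rule after their values were seen. An item of the lists and a sequence are not reported here.

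The alternatives were windows of 5 and 50 kb or around the gene start, a reciprocal overlap of 50% between replicates or lines, the top-scoring 50% of every library, sites from either replicate, leaving out each replicate, the whole site or its central 100 bp, the ACGTG motif and distance from the gene start. Ranks among peaks that make sites were added after seeing the data.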

Additional observations from a re-analysis of the deposited data

How the results depend on the processing

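No paired analysis was possible because no result comes from a test. Ranks were held to the SD between replicates, and counts to a fixed ratio. Leaving out a replicate cannot move the rank of an unchanged peak past that SD. Most other alternatives kept the percent of each peak, and a gene that lost its site was not counted. The 180 of 194 values of single genes that stayed are therefore little sign of stability. Of 90 recomputed counts and medians 77 stayed within these limits and 13 moved, as did 14 of the 194. All 14 fell when ranks were taken among peaks that make sites, an alternative chosen after seeing the data. With that ranking, the median percent scoring lower over the 7 genes went from 82.6 to 67.2 in PC-3, from 89.8 to 85.2 in T47D, from 56.5 to 41.8 in A549 and from 87.4 to 81.9 in HCT-116 cells. With the higher-scoring 50% of each list, genes with a site in A549 cells went from 6 to 3 (ANKRD37, WSB1 and FOSL2) and the A549 median to 0. With a replicate left out the A549 median was 59.5 to 59.9 and the HCT-116 median 86.2 to 93.4, the higher without replicate 3. Genes whose highest-ranked site held the motif went from 5 to 3 in PC-3 cells with ACGTG in place of RCGTG, and with the central 100 bp from 6 to 3 in A549 and from 4 to 2 in HCT-116 cells. Regions with a site in all 4 lines went from 3 to 8 when a peak of either replicate sufficed. The cause of these changes was not tested, beyond the fewer peaks or the smaller sequence that an alternative leaves. Unknown depth, 2 replicates a line, lists of unequal length and the absence of normoxic or input libraries from this work limit what the ranks can show.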
